A study of Mus musculus with 12 samples.

Results

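The 6 genes examined were *Ankrd1*, *Ankrd2*, *Ankrd23*, *Csrp3*, *Fhl1* and *Fhl2*. They encode ankyrin repeat and LIM domain proteins of striated muscle that respond to stretch and mechanical load. They were chosen by name, with earlier results of these data known. Their NCBI Gene IDs were looked up among the 27179 mouse genes of the count table. All 6 were found and all 6 were among the 15502 genes that passed the filter on low counts and were tested. The RNA came from 12 tibialis anterior (TA) muscles of 6 male wild-type C57BL/6N mice, delivered at an age of 6 to 8 weeks and studied within 2 weeks of delivery. In each mouse 1 TA was electroporated with 10 μg of empty pcDNA3 plasmid (Control muscles, n = 6) and the TA of the other leg with 10 μg of the same plasmid carrying the full-length human lncRNA *FRAIL1* behind the CMV promoter (*FRAIL1* muscles, n = 6). Both groups therefore share hyaluronidase injection, plasmid DNA and electroporation, no muscle without a plasmid is included, and muscle was collected 7 days later. Whole-muscle RNA was sequenced, so transfected and other fibers and all other cell types were counted together, and fewer cells of a type cannot be told apart from less RNA per cell.

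The 3 ankyrin genes form the muscle ankyrin repeat protein (MARP) family, whose products bind the elastic I-band region of titin and also enter the nucleus, where they act on transcription. *Csrp3* encodes muscle LIM protein, a Z-disc and nuclear cofactor, and *Fhl1* and *Fhl2* encode proteins built of LIM domains that bind sarcomere, kinase and transcription factor partners. In skeletal muscle such genes are known to be induced by stretch, eccentric contraction, injury and denervation, and *Ankrd2* and *Csrp3* are known to be more abundant in slow muscle. *Ankrd1* is a classic target of the YAP and TAZ coactivators, which act through TEAD factors, and *Fhl2* is a target of serum response factor (SRF).

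Sequence upstream of *Ankrd1* and *Fhl2* is shown because these were the only members past the threshold of the edgeR test described below. The windows are the 250 bases before each RefSeq start site, written 5′ to 3′ on the strand of the gene, from RefSeq on GRCm38.p6. Capitals mark the M-CAT element that TEAD factors are known to bind (CATTCC, read as GGAATG on the other strand) and the CArG box that SRF is known to bind. *Ankrd1* has 1 listed start (chr19:36119845-36120094, minus strand) and *Fhl2* has 2, the upstream one at chr1:43196762-43197011 and the inner one at chr1:43163962-43164211, both on the minus strand.
Ankrd1: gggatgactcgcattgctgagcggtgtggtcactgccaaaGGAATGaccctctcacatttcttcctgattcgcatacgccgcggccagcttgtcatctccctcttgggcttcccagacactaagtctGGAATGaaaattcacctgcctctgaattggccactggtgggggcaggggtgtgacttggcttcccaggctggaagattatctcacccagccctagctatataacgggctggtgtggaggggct
Fhl2, upstream start: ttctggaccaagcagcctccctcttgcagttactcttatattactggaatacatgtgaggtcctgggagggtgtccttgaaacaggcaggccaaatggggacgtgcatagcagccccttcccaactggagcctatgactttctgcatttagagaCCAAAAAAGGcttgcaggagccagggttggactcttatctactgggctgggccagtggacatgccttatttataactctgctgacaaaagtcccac
Fhl2, inner start: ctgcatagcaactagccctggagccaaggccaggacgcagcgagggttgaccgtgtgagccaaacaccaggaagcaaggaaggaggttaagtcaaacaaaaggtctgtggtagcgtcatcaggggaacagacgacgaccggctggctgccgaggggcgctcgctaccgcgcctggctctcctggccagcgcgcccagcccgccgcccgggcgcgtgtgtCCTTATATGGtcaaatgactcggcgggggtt
The *Ankrd1* window held M-CAT matches from base -210 to -205 and from -123 to -118, counted from the start site, both on the strand opposite to the gene. The *Fhl2* windows each held 1 CArG box, at -96 to -87 and at -31 to -22. M-CAT, the E-box CANNTG, the CArG box and the MEF2 site were searched on both strands in the 10 windows listed for the 6 genes. M-CAT was found in 2 of 10 windows, 1 of *Ankrd1* and 1 of *Ankrd23*, against 12.6% of all 32851 mouse windows of this length. A CArG box was found in windows of *Fhl1* and *Fhl2*, in 3 of 10 windows, against 1.47% of all windows, and a MEF2 site in 1 window, of *Fhl2*, against 2.92%. The E-box was in 9 of 10 windows and in 66.2% of all. These are matches of letters in short windows, and binding was not measured.

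Reads per gene were scaled by TMM to CPM, the counts of a gene in each 1e+06 counts of its library. The quasi-likelihood test of edgeR then set the groups against each other over all genes, with a threshold of 0.05 on the adjusted p-value. Libraries held between 44848322 and 60527385 counts. *FRAIL1* muscle 5 stood apart from the rest, at 59.5 on the first principal component where the other *FRAIL1* muscles lay from -5.92 to 25.8 and Control muscles from -25.9 to -11.0. Results are therefore also given without both muscles numbered 5. Muscles of 1 number were treated as the legs of 1 mouse, which the numbering implies but no label states. Transcripts of muscle fibers were abundant in every library, with *Ckm*, muscle creatine kinase, between 7127 and 14148 CPM, and none of the 13 fast fiber and TA markers was at 0.

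Of the 6 members, 2 rose in *FRAIL1* muscles past the threshold, *Ankrd1* and *Fhl2*, and none fell past it, where 6.28% of all genes tested passed in either direction. *Ankrd1* had the larger change, to 2.80 times its Control level, and *Fhl2* reached 1.55 times. *Csrp3* and *Fhl1* had higher means and *Ankrd23* a lower mean without passing, and *Ankrd2* differed by less than the spread between muscles. At an unadjusted p under 0.05 there were 5 members, all but *Ankrd2*, where 27.7% of all genes had one. With the mouse as a block, 4 of the 6 passed, *Ankrd1*, *Fhl1* and *Fhl2* as higher and *Ankrd23* as lower, where 14.1% of all genes passed, 7.48% as higher and 6.62% as lower. Without both muscles numbered 5, 3 passed, *Ankrd1*, *Ankrd23* and *Fhl2*, where 5.61% of all genes did. The 6 *FRAIL1* values lay wholly above the 6 Control values for 2 members, *Ankrd1* and *Fhl2*, where 3.12% of all genes tested lay wholly higher and 4.88% did not overlap in either direction. The median log2 fold change of the members was 0.56, beside 0.0096 over all genes tested.

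**Figure D1:**
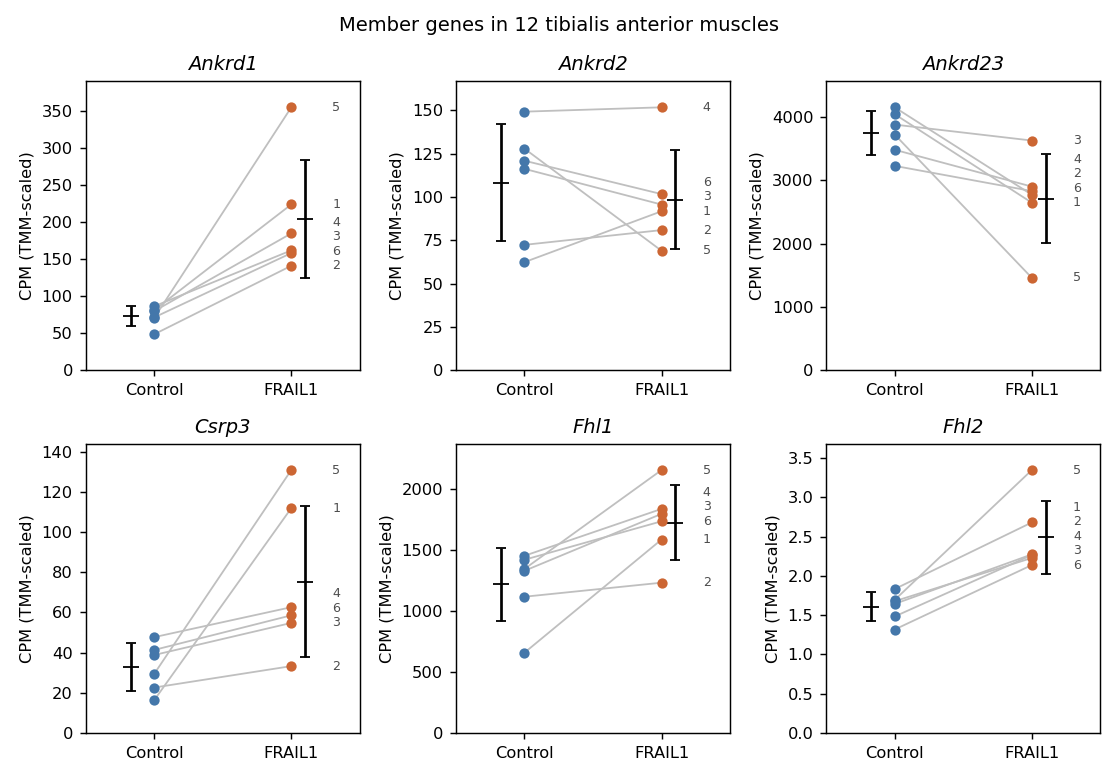
CPM of each member gene in the 6 Control and 6 *FRAIL1* muscles, with grey lines joining muscles of 1 number, the number printed at the right of each panel, and black bars giving the mean and SD of each group. All *Ankrd1* and *Fhl2* values of *FRAIL1* muscles lie above all Control values, *Ankrd23* is lower in the *FRAIL1* muscle of every pair, and *FRAIL1* muscle 5 is the highest or lowest *FRAIL1* muscle in every panel.

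*Ankrd1* (Gene ID 107765, chromosome 19 of GRCm38, 36111965 to 36119844) encodes cardiac ankyrin repeat protein, which is abundant in heart and low in resting skeletal muscle. In Control muscles it ranged from 48.4 to 86.1 CPM with a median of 75.4. In *FRAIL1* muscles it ranged from 140.8 to 354 CPM with a median of 173. The groups did not overlap, and the lowest *FRAIL1* muscle, muscle 2, was paired with the lowest Control muscle. Means were 72.7 ± 13.4 and 204 ± 79.1 CPM (SD, n = 6 each), which gave 1.49 on the log2 scale (standard error 0.222, adjusted p = 0.00485, edgeR quasi-likelihood test). Its p-value ranked number 60 among the 15502 genes, and its log2 fold change ranked number 90 from the top. The rise was seen in 6 of 6 pairs, from 0.91 to 2.33 on the log2 scale, with the largest in pair 5. The log2 fold change was 1.24 without both muscles numbered 5 (adjusted p = 0.00491, edgeR quasi-likelihood test).

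*Ankrd2* (Gene ID 56642, chromosome 19, 42035917 to 42045111) encodes the stretch-responsive family member of slow muscle. It ranged from 62.3 to 149 CPM with a median of 118.5 in Control muscles and from 68.9 to 152 CPM with a median of 93.6 in *FRAIL1* muscles. The ranges covered each other almost wholly, and muscle 4 was the highest of both groups. The means of 108 ± 33.7 and 98.4 ± 28.6 CPM (SD, n = 6 each) gave a log2 fold change of -0.14 with a standard error of 0.233 (adjusted p = 0.744, edgeR quasi-likelihood test). The value was higher in 3 pairs and lower in 3, between -0.89 in pair 5 and 0.56 in pair 1. It was -0.0022 without both muscles numbered 5.

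*Ankrd23* (Gene ID 78321, chromosome 1, 36530193 to 36536556) encodes diabetes-related ankyrin repeat protein, known as a family member linked to muscle metabolism. It ranged from 3227 to 4152 CPM with a median of 3800 in Control muscles. In *FRAIL1* muscles it ranged from 1459 to 3627 CPM with a median of 2800. Of the 6 *FRAIL1* muscles 5 lay below every Control muscle, and the exception was muscle 3. Means were 3751 ± 349 and 2705 ± 702 CPM (SD, n = 6 each), 0.721 times the Control level, with a log2 fold change of -0.47 and a standard error of 0.158 (adjusted p = 0.0785, edgeR quasi-likelihood test). With the mouse as a block the log2 fold change was -0.51 and the adjusted p-value 0.0489 in the edgeR fit, just inside the threshold. The *FRAIL1* muscle was the lower in 6 of 6 pairs, by values from -1.35 in pair 5 to -0.097 in pair 3 on the log2 scale. Without both muscles numbered 5 the fold change was smaller, at -0.35, and past the threshold (adjusted p = 0.0410, edgeR quasi-likelihood test), beside a smaller standard error of 0.0921. The GENCODE gene *Gm42417*, on the same strand, overlaps 78.2% of the exonic bases of *Ankrd23*, so in those bases reads of the 2 genes cannot be told apart. Whether the counts of *Ankrd23* include or lack such reads was not tested.

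The ratio of *Ankrd23* to *Ankrd1* within each library, which needs no scaling between libraries, is given as a description only. The pair was taken because the fold changes had opposite signs, so a lower ratio in *FRAIL1* muscles follows from that choice. Per kb of exon, *Ankrd23* exceeded *Ankrd1* by 56.5 ± 9.27 times (SD, n = 6) in Control muscles, between 46.8 and 71.4. In *FRAIL1* muscles it exceeded it by 16.4 ± 7.04 times (SD, n = 6), between 4.40 in muscle 5 and 24.02 in muscle 3. The size of the ratio depended on the length used. Per kb of the longest mRNA in RefSeq, a choice made after seeing the data, it was 46.8 ± 7.68 in Control and 13.6 ± 5.84 in *FRAIL1* muscles (SD, n = 6 each). *Ankrd1* made up 1.31 to 1.90% of the MARP transcripts per kb in Control muscles and 3.77 to 16.96% in *FRAIL1* muscles, where the second highest share was 6.80%, in muscle 1. The share of *Ankrd2* overlapped between the groups, at 3.46 to 9.04% and 5.66 to 10.5%. *Ankrd23* still made up 74.7% or more in every muscle.

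**Figure D2:**
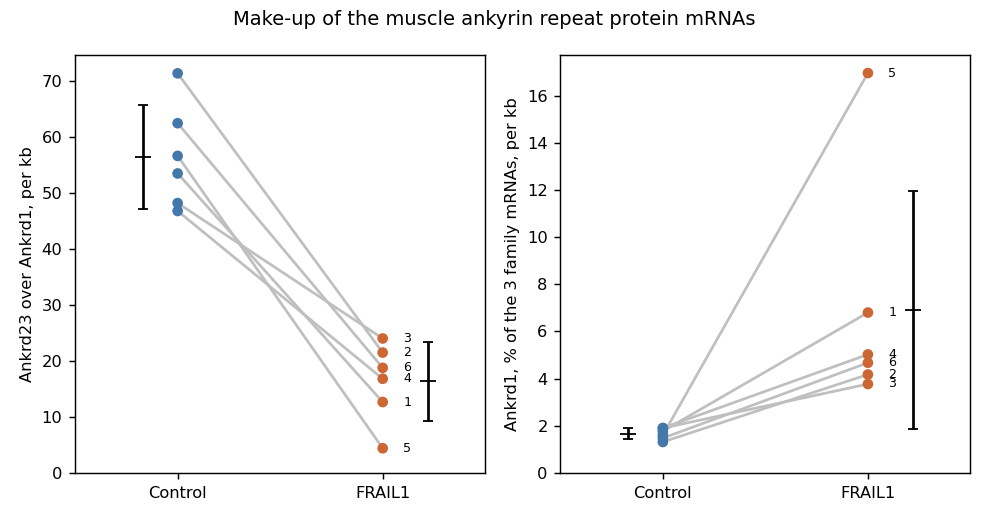
Ratio of *Ankrd23* to *Ankrd1* per kb of exon (left) and the percentage of MARP family transcripts per kb contributed by *Ankrd1* (right) in each muscle, with lines joining muscles of 1 number and bars giving the mean and SD (n = 6). The ratio spans 46.8 to 71.4 in Control muscles and 4.40 to 24.02 in *FRAIL1* muscles, and muscle 5 has the largest *Ankrd1* share at 16.96%.

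*Csrp3* (Gene ID 13009, chromosome 7, 48830398 to 48848051) ranged from 16.2 to 47.6 CPM with a median of 34.0 in Control muscles and from 33.2 to 131 CPM with a median of 60.5 in *FRAIL1* muscles. *FRAIL1* muscles 5 and 1 stood well above the others, at 131 and 112 CPM, and muscle 2 lay inside the Control range. Means were 32.6 ± 11.99 and 75.3 ± 37.6 CPM (SD, n = 6 each), 2.31 times the Control level. The log2 fold change of 1.21 was the second largest among the members, but with a standard error of 0.352 it did not pass (adjusted p = 0.0606, edgeR quasi-likelihood test). The *FRAIL1* muscle was the higher in 6 of 6 pairs, by 2.79 and 2.16 on the log2 scale in pairs 1 and 5 and by 0.39 to 0.56 in the other 4. The 2.79 in pair 1 joins the second highest *FRAIL1* muscle to the lowest Control muscle. Leaving out both muscles numbered 5 gave 0.94 on the log2 scale (adjusted p = 0.194, edgeR quasi-likelihood test).

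*Fhl1* (Gene ID 14199, chromosome X, 56731209 to 56793346), which encodes the main four-and-a-half LIM protein of skeletal muscle, ranged from 657 to 1452 CPM with a median of 1336 in Control muscles. In *FRAIL1* muscles it ranged from 1232 to 2156 CPM with a median of 1766. *FRAIL1* muscle 2 alone fell inside the Control range, and Control muscle 1 was the lowest Control muscle, with the next at 1117 CPM. Means were 1220 ± 299.5 and 1724 ± 305 CPM (SD, n = 6 each), 1.41 times the Control level, with a log2 fold change of 0.50 and a standard error of 0.175 (adjusted p = 0.0911, edgeR quasi-likelihood test). In all 6 pairs the *FRAIL1* muscle was above its partner, by 0.14 to 1.27 on the log2 scale. With the mouse as a block *Fhl1* was past the threshold (adjusted p = 0.0289, edgeR). It was not once both muscles numbered 5 were left out, with or without the block.

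*Fhl2* (Gene ID 14200, chromosome 1, 43123071 to 43198343) is known as a cardiac LIM protein and was scarce in TA, with 60 to 92 reads in Control libraries and 109 to 179 in *FRAIL1* libraries. That came to 1.32 to 1.83 CPM with a median of 1.66 in Control muscles and 2.14 to 3.35 CPM with a median of 2.27 in *FRAIL1* muscles. The groups did not overlap, with *FRAIL1* muscles 5 and 1 the highest. Means were 1.61 ± 0.181 and 2.49 ± 0.461 CPM (SD, n = 6 each), which gave 0.63 on the log2 scale (standard error 0.147, adjusted p = 0.0254, edgeR quasi-likelihood test). The rise was seen in 6 of 6 pairs and was the most even among the members, at 0.41 to 0.98 on the log2 scale. Without both muscles numbered 5 it was 0.54 (adjusted p = 0.0469, edgeR quasi-likelihood test). Leaving out 1 muscle kept *Fhl2* under the threshold in 8 of 12 fits, and it reached 0.0508, 0.0521, 0.0513 and 0.0589 without Control muscle 2, 4 or 6 or *FRAIL1* muscle 1.

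**Figure D3:**
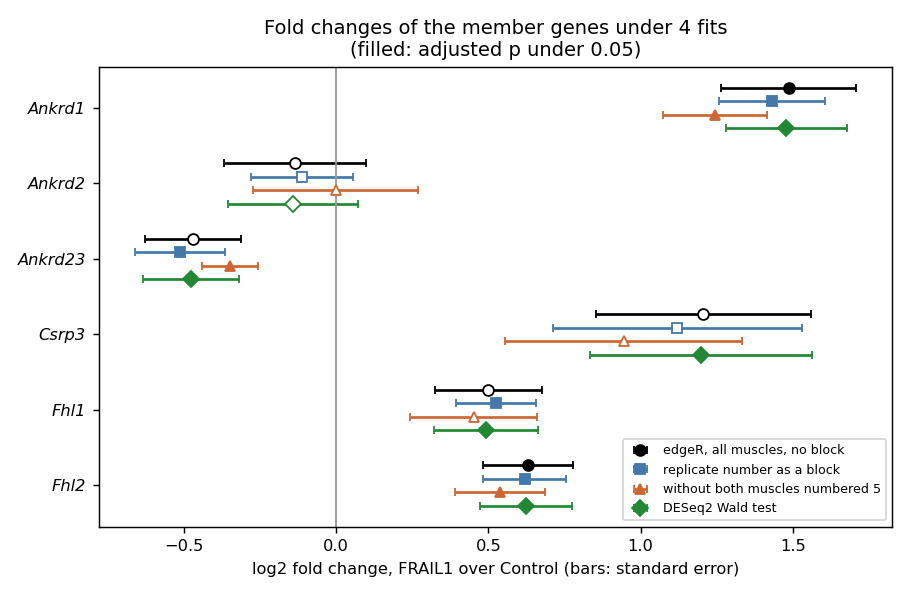
Log2 fold change of each member gene between *FRAIL1* and Control muscles with its standard error under 4 fits, with filled symbols where the adjusted p-value was under 0.05. *Ankrd1* and *Fhl2* are filled under all 4, *Ankrd23* under all but the edgeR fit of all muscles without the block, *Fhl1* under the block and DESeq2, *Csrp3* under DESeq2 only, and *Ankrd2* under none.

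The Wald test of DESeq2, the tool named in the methods of the study, called 5 of the 6 members, all but *Ankrd2*, where it called 15% of the 14890 genes to which it gave an adjusted p-value. *Ankrd1* was past the threshold in all 24 alternative settings, *Fhl2* in 20, *Ankrd23* in 8, *Csrp3* in 5, *Fhl1* in 4 and *Ankrd2* in 0. The direction of *Ankrd1*, *Ankrd23*, *Csrp3*, *Fhl1* and *Fhl2* was the same in every one of them. *FRAIL1* muscle 5 was the highest of its group for *Ankrd1*, *Csrp3*, *Fhl1* and *Fhl2* and the lowest for *Ankrd2* and *Ankrd23*. Among Control muscles, muscle 1 was lowest for *Ankrd2*, *Csrp3* and *Fhl1* and highest for *Fhl2*.

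Divided by the exonic bases annotated for each gene, levels in Control muscles were highest for *Ankrd23*, at 1391 ± 129.5 CPM per kb (SD, n = 6), followed by *Fhl1* at 328 ± 80.6 and *Ankrd2* at 95.0 ± 29.6 CPM per kb. *Ankrd1* at 25.2 ± 4.63, *Csrp3* at 12.2 ± 4.49 and *Fhl2* at 0.847 ± 0.0954 CPM per kb followed. Only *Ankrd1* and *Csrp3* overlapped among neighbors in this order, at 16.8 to 29.8 and 6.07 to 17.8 CPM per kb. Their order depended on the length used, and with the longest mRNA in RefSeq, a choice made after seeing the data, they were level at 36.0 and 36.3 CPM per kb. In *FRAIL1* muscles *Ankrd23*, at 541 to 1345 CPM per kb, overlapped *Fhl1*, at 332 to 580, because in muscle 5 *Fhl1* was the higher. *Ankrd1*, at 48.8 to 123 CPM per kb, came to overlap *Ankrd2*, at 60.5 to 133, from which it had been separate in Control muscles.

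**Figure D4:**
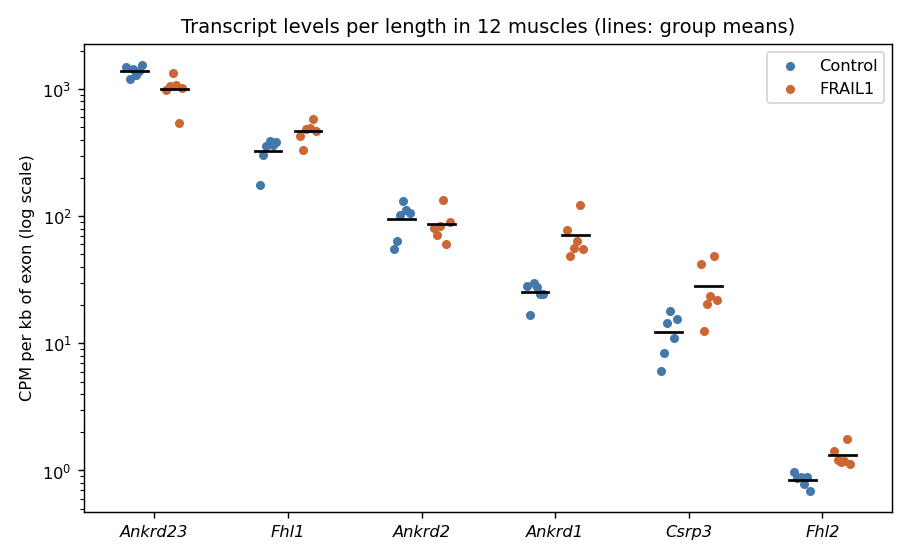
CPM per kb of exon, on a log axis, of the member genes in Control and *FRAIL1* muscles, with lines at the group means. The genes span from *Ankrd23* at 1391 to *Fhl2* at 0.847 CPM per kb in Control muscles, and *Ankrd1* in *FRAIL1* muscles reaches the level of *Ankrd2*.

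The genes whose levels followed each member most closely over the 12 muscles were found by Pearson's r of log2 CPM. The coefficients describe muscles that share libraries and group differences, and each is the highest out of all tested genes, so they are given without a test. *Ankrd1* was followed by *Cldn2*, a claudin, and *Arl6ip5*, both with r = 0.987. Since the 12 muscles include the difference between the groups, a gene that follows a member shares its difference by choice, and no test is given for these genes. *Fhl2* was followed by *Chrnb1*, the acetylcholine receptor β subunit, with r = 0.970, and by *Dlgap4* with r = 0.967. *Ankrd23* was followed by *Ensa* and *Iftap* with r = 0.983 and 0.981, *Csrp3* by *Rab15* and *Rec8* with 0.953 and 0.940, and *Fhl1* by *Ppp1r3d* and *Hspb7* with 0.970 and 0.927. For *Ankrd2* the closest were *2610005L07Rik* and *Tnfrsf9*, with 0.845 and 0.841, and 0.723 and 0.756 without the 2 muscles farthest from its median. Some of these genes were scarce. Control means were 0.97 CPM for *Cldn2*, 0.65 for *Rec8* and 0.83 for *Tnfrsf9*, beside 153 for *Arl6ip5*.

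Around the members, 5 lists of related genes and 8 of marker genes were described by their counts, and some genes stand in more than 1 list. The lists, too, were chosen with earlier results of these data known. Counts are from the edgeR fit without the block, and those with the mouse as a block follow where they differ by over 1.5 times. Of 26 tested LIM and ankyrin relatives, 3 rose and none fell, with a median log2 fold change of 5.9e-05, beside 4.43% of all genes that rose past the threshold. The 3 were *Pdlim3*, the actinin-associated LIM protein (543 ± 28.7 to 726 ± 77.4 CPM, SD, n = 6 each), *Pdlim4* (6.11 to 8.88 CPM) and *Lims1*, the integrin adaptor PINCH1 (43.97 to 56.9 CPM). Their adjusted p-values were 0.00889, 0.0469 and 0.0479 by the edgeR quasi-likelihood test, and that of *Lims1* was 0.0685 with the block and 0.0649 without both muscles numbered 5. With the block 3 relatives were higher and 2 lower, the latter *Lims2* and *Ankrd33b* (adjusted p = 0.0438 and 0.0346, edgeR), named after their values were seen. Of 31 tested titin I-band and Z-disc partners, 2 rose and 1 fell, where 1.85% of all genes fell, and the median was -0.089. *Hspb8* and *Hspb7*, small heat shock proteins of muscle, rose from 449.7 ± 54.9 to 737 ± 109 CPM and from 355 ± 78.4 to 563 ± 57.1 CPM (SD, n = 6), by 0.71 and 0.67 on the log2 scale (adjusted p = 0.00271 and 0.0145, edgeR quasi-likelihood test). *Smyd2*, a methyltransferase known to bind titin, fell from 284 ± 24.3 to 208 ± 40.7 CPM (SD, n = 6 each), with a log2 fold change of -0.45 (adjusted p = 0.0344, edgeR quasi-likelihood test). With the block the balance turned, to 2 higher and 5 lower. *Actn3*, *Xirp2*, *Ppp3cb* and *Rcan1*, named after their values were seen, then passed as lower beside *Smyd2* (adjusted p = 0.0472, 0.0275, 0.0118 and 0.0327, edgeR).

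Of 30 tested genes of the YAP and TAZ pathway, 2 rose and none fell, with a median of 0.067. They were *Axl*, a receptor tyrosine kinase (50.0 ± 3.50 to 78.0 ± 16.6 CPM, SD, n = 6 each, adjusted p = 0.0114, edgeR quasi-likelihood test), and *Tead2*, a TEAD factor (2.38 to 3.95 CPM, adjusted p = 0.0469, edgeR quasi-likelihood test). With the block 3 were higher and 1 lower, *Crim1* (adjusted p = 0.0054, edgeR), named after its value was seen. The targets *Ccn1* and *Ccn2*, looked up after the results were known since they are the usual companions of *Ankrd1*, had log2 fold changes of 0.20 and 0.068 (adjusted p = 0.406 and 0.867, edgeR quasi-likelihood test). Of 26 genes of the MRTF and SRF pathway 0 passed in edgeR without the block, 6 had an unadjusted p under 0.05, and DESeq2 and limma voom called 2 each, with a median of 0.11. The edgeR fit that was not robust called 1. With the block edgeR called 4, *Actc1* and *Junb* as higher and *Srf* and *Jag1* as lower (adjusted p = 0.0107, 0.0245, 0.0368 and 0.0286), named after their values were seen. Among 23 integrin and membrane mechanosensors, 4 rose and 2 fell, with a median of 0.10. *Itga7* and *Itga5*, integrin α subunits, rose by 0.47 and 0.50 and *Itgb1bp2*, the β1-binding protein melusin, by 0.51 on the log2 scale, and *Fermt2*, kindlin-2, had a log2 fold change of -0.34 (adjusted p = 0.0124, 0.0469, 0.0302 and 0.0416, edgeR quasi-likelihood test). *Itgb1*, which rose by 0.26, and *Ptk2*, at -0.22, complete these counts and were named after their values were seen. Without both muscles numbered 5 the edgeR adjusted p-values of *Tead2*, *Itgb1* and *Ptk2* were 0.0893, 0.0523 and 0.0784.

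**Figure D5:**
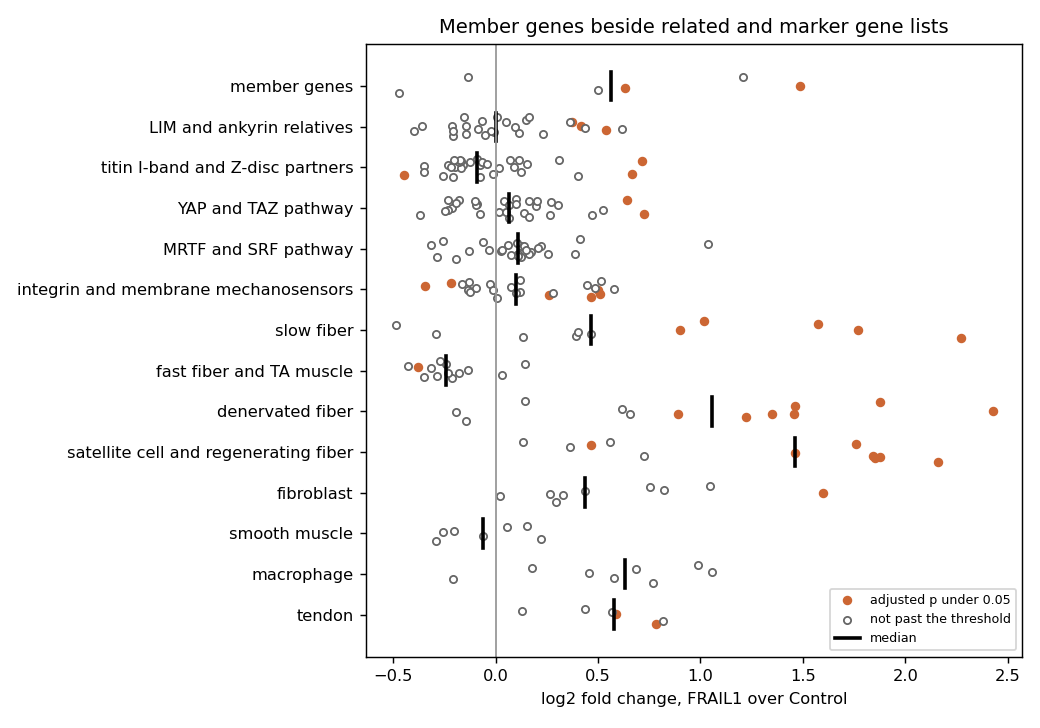
Log2 fold change of every tested gene of the member set, the related lists and the marker lists (points, filled where the adjusted p-value was under 0.05), with a bar at each median. The medians of the related lists lie between -0.089 and 0.11, and the largest medians are those of the satellite cell and regenerating fiber list at 1.46 and the denervated fiber list at 1.05.

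Markers of other fiber states and cell types moved with the groups as well, and their part in the values of the members was not tested. Of 11 slow fiber markers, 5 rose and none fell. Their summed level ranged from 311 to 501 CPM in Control muscles and from 412 to 1093 CPM in *FRAIL1* muscles, where muscle 5 was the highest. The 4 with the largest changes were *Tnni1*, *Tnnt1* and *Tnnc1*, slow troponins, and *Casq2*, slow calsequestrin, at 2.27, 1.77, 1.58 and 1.02 on the log2 scale (adjusted p = 0.00817, 0.00526, 0.0145 and 0.0425, edgeR quasi-likelihood test), and the other was *Atp2a2*, named after its value was seen. The other 6 did not pass, and the slow myosin genes *Myh7* and *Myl2* were higher in 2 of 6 pairs and *Myl3* and *Pln*, with log2 fold changes of -0.49 and -0.29, in 1 of 6. These 4 were named after their values were seen. For *Casq2* the edgeR adjusted p-value was 0.0727 with the block and 0.0688 without both muscles numbered 5. Of 13 fast fiber and TA markers 1 fell, *Ckm*, by 0.38 on the log2 scale. With the block 4 did, *Ckm*, *Myh4*, *Actn3* and *Mylk2* (adjusted p = 0.0384, 0.0328, 0.0472 and 0.0435, edgeR), of which the last 3 were named after their values were seen, and DESeq2 called 7. The sum went from between 197271 and 231133 CPM to between 147263 and 210261 CPM. The edgeR adjusted p-value of *Ckm* was 0.0599 without both muscles numbered 5.

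Of 12 denervated fiber markers 7 rose, led by *Sln*, sarcolipin, *Chrng* and *Chrna1*, acetylcholine receptor subunits, and the myogenic factor *Myog*, at 2.43, 1.88, 1.46 and 1.46 on the log2 scale. Their sum was 112 to 172 CPM in Control and 264 to 507 CPM in *FRAIL1* muscles, without overlap. Of 11 satellite cell and regenerating fiber markers 7 rose, led by *Myh3* at 2.16, *Chrng*, the fusion gene *Mymk* at 1.85 and *Myh8* at 1.84, and the sum went from 345 to 422 CPM up to 553 to 1877 CPM, again without overlap. Without both muscles numbered 5 the medians of the 2 lists were 0.89 and 1.16.

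Of 9 fibroblast markers *Postn*, periostin, rose past the threshold, with sums of 1041 to 1916 and 2038 to 5451 CPM. All 9 had positive log2 fold changes, with a median of 0.44. Of them 6 had an unadjusted p under 0.05, and DESeq2 called 5 and limma voom 4. Of 6 tendon markers *Scx* and *Thbs4* rose, with sums of 145 to 310 and 245 to 498 CPM. The edgeR adjusted p-value of *Postn* was 0.109 with the block and 0.0524 without both muscles numbered 5, and that of *Thbs4* was 0.139 without them. Of 7 smooth muscle and 8 macrophage markers 0 passed in edgeR without the block, 2 and 5 had an unadjusted p under 0.05, and DESeq2 called 0 and 4. With the block edgeR called 0 smooth muscle markers and 4 macrophage markers, *Adgre1*, *Csf1r*, *Lyz2* and *Ctss*, all as higher (adjusted p = 0.0210, 0.0443, 0.0396 and 0.0377), named after their values were seen. Without both muscles numbered 5 edgeR called 0 macrophage markers, with or without the block. Of the 8 macrophage markers 7 had a positive log2 fold change. The exception, *Cd163*, also named after its value was seen, was at -0.21 and higher in 1 of 6 pairs. The smooth muscle sums were 4319 to 5143 and 4725 to 5703 CPM, mostly from *Des*, which muscle fibers also express, and the macrophage sums were 211 to 345 and 256 to 823 CPM. No marker of the 8 lists was at 0 in all libraries.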

How the data were processed

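RNA-seq of 12 TA muscles, 6 Control and 6 *FRAIL1*, was analyzed. According to the study's methods, the authors trimmed adaptors from 150 bp paired-end poly(A) reads with Trimmomatic, mapped them to mm10 with RNA-star 2.7.8a and deposited featureCounts 2.0.1 counts of uniquely mapped reads per gene, without normalization. Use of strand is not given in the sources used here. Symbols and positions were taken from RefSeq on GRCm38.p6, which matched 25275 of 27179 IDs, and exonic bases and overlaps from GENCODE M21. No other transcript matched those of *Ankrd1*, *Ankrd2*, *Csrp3*, *Fhl1* or *Fhl2* at 98% identity over 100 bases (BLAST).

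Genes passing filterByExpr were scaled with TMM and compared by edgeR 4.0.16 (robust quasi-likelihood, R 4.3.3) without a term for the mouse, with Benjamini-Hochberg adjustment over all genes. The steps were also run on simulated counts with the seed 20240131. Those counts had no effect of the mouse and no outlying muscle, so they cannot decide on the block. *Fhl2* had 60 to 179 reads a library and the other members 797 or more. The p-values of the fit without the block measure the spread between muscles, which includes differences between mice. Those with the block measure the spread of the differences within pairs. The fit without the block is given first because the methods of the study state no term for the mouse.

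Members and lists were chosen with earlier results of these data known. Named genes were the members, up to 4 called genes per list with the largest change, and the 2 genes most correlated with each member. Exceptions are stated where they occur. Alternatives were a block for the mouse, scaling by DESeq2 size factors, by upper quartiles or by TMM without mitochondrial and the top 20 genes, no filter, a filter of 10 counts in all muscles, leaving out 1 muscle or both muscles numbered 5 (the latter also with the block), limma 3.58.1 voom with sample weights, the Wald test of DESeq2 1.42.0 (also with the block), and a fit that was not robust.

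Pairing by number was checked by correlating, over 15502 genes, how far muscles lay from the mean of their group. Within numbers 1 to 6 it was 0.254, 0.162, 0.282, 0.263, 0.0547 and 0.185, with a mean of 0.200. The mean of -0.040 between different numbers largely follows from that value, since distances were taken from the mean of each group. Of 720 pairings only the numbering itself had as high a mean. Number 5 was the weakest.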

Additional observations from a re-analysis of the deposited data

Results flagged for a closer look

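Among 66 groups of 6 values checked, of members and of named list genes, 7 had a highest or lowest muscle whose gap to the next, as a share of the range of the group, was above Dixon's critical value, where chance gives about 1 in 20 for a single group. The groups come from the same 12 muscles and are not independent. None of the 12 groups of member values did by this measure, though *FRAIL1* muscle 5 measured 354 CPM for *Ankrd1*, with the next at 223 CPM. *FRAIL1* muscle 5 was the distant one in 6 of the 7. It measured 72.6 CPM for *Lims1*, where the other *FRAIL1* muscles lay between 49.9 and 56.2. For *Casq2* it measured 324 CPM against 85.0 to 174. For *Myog* it measured 64.1 CPM against 20.3 to 32.0. For *Myh3* it measured 541 CPM against 105 to 216, and for *Myh8* 876 CPM against 153 to 390. For *Postn* it measured 435 CPM against 74.7 to 152. The other was Control muscle 5 for *Pdlim4*, at 7.24 CPM against 5.48 to 6.05.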

How the results depend on the processing

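Over 24 alternatives, 121 of 144 member values kept their direction and their side of the threshold, 17 came under it, 4 rose above it and 2 changed sign. *Ankrd2*, never past the threshold, changed sign in voom (0.060) and without both muscles numbered 5 with the block (0.037). *Ankrd23* came under 0.05 at -0.51 with the block, -0.40 in voom, -0.48 and -0.52 in DESeq2 without and with the block, and -0.35 without both muscles numbered 5, with or without the block (-0.3498 and -0.3520). *Csrp3* did so at 1.08 in voom, 1.20 and 1.115 in DESeq2 without and with the block, and 1.21 in the fit that was not robust. *Fhl1* did so at 0.52 with the block and at 0.49 and 0.52 in DESeq2 without and with it. The block changed no other call among the members. With each muscle left out in turn the log2 fold change ranged from 1.25 to 1.57 for *Ankrd1*, -0.30 to -0.022 for *Ankrd2*, -0.57 to -0.35 for *Ankrd23*, 0.97 to 1.36 for *Csrp3*, 0.37 to 0.58 for *Fhl1* and 0.52 to 0.67 for *Fhl2*. *Ankrd23* then passed without *FRAIL1* muscle 3 or 5 (adjusted p = 0.0266 and 0.0265, edgeR), and *Csrp3* and *Fhl1* without *FRAIL1* muscle 2 (0.0286 and 0.0467, edgeR). The count over all genes, 974, was 2186 with the block, 1836 in voom, 2232 and 2898 in DESeq2 without and with the block, 2305 without both muscles numbered 5 with the block, and 364 to 2110 with 1 muscle left out. Of 312 list medians 309 moved by less than the spread between muscles. That of the YAP and TAZ list was 0.0084 and 0.0091 without both muscles numbered 5, without and with the block, and that of the satellite cell and regenerating fiber list ranged from 1.14 to 1.56 with 1 muscle left out. The causes were not tested.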
